A study of Mus musculus with 2 samples.

Results

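The regions described here are the stretches of open chromatin with the highest signal in the sequence between genes, at a middling distance from a gene start, in mouse T-helper 1 cells. They were selected by 4 conditions. A region was found in the lists of both replicates with at least 1 bp of overlap, it lay outside every gene of the GENCODE M21 annotation, its centre was 10 to 100 kb from the nearest protein-coding gene start, and its signal value, column 7 of the deposited lists, was 12 or more in both replicates. Of 84380 regions shared by both replicates, 24945 lay between genes and 14999 of those lay at this distance. The threshold kept 2028 of the 14999, or 13.5%, and the other 12971 are called the weaker regions below. Because column 7 chose the 2028 regions, their signal is given as a description. Width and −log10 q come from the same region calls and are given in the same way.

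The study profiled chromatin accessibility by ATAC-seq in primary T-helper 1 cells of the mouse strain C57BL/6NJ. There was 1 group with 2 biological replicates, whose lists held 98786 and 91403 regions on chromosomes 1 to 19, X and Y. No treatment, time point or allele is given in the labels, the sex was not collected and the age is unknown. Both replicates carry the same donor identifier, and whether the cells came from separate animals is not stated, so agreement between them may be technical. All values below are given with replicate 1 first, and all coordinates are mm10. Promoters were read as a check of the labelled cell type, counting a promoter as open when a shared region lay within 1 kb of an annotated start. Each of 12 T cell markers had an open promoter, and so did each of 6 Th1 markers (Tbx21, Ifng, Il12rb2, Cxcr3, Stat4 and Hopx). By the same definition 65.9% of all 21938 coding genes had one, so an open promoter alone does not mark a cell type. The promoters of the B cell markers Cd79a and Ms4a1, of the myeloid markers Csf1r, Lyz2 and Itgam, of the natural killer cell markers Ncr1 and Klra8 and of the CD8 T cell marker Cd8a were not open. Open promoters were found at the B cell markers Cd79b, Pax5 and Ebf1, the myeloid markers Spi1, Cd14 and Cebpa, the natural killer cell markers Klrb1c and Eomes and the CD8 marker Cd8b1. Their promoter signals in replicate 1 ran from 2.35 at Cd79b to 18.3 at Klrb1c, beside 2.29 at Cd4 to 11.97 at Lat for the T cell and Th1 markers, and the part of other cells in the lists was not tested.

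In ATAC-seq a transposase cuts and tags DNA where nucleosomes leave it exposed. Open regions away from gene starts include enhancers, which raise the transcription of genes at a distance, and sites bound by CTCF, a zinc finger protein that takes part in folding the chromosome into loops. In activated T cells many enhancers are bound by AP-1, a dimer of Fos, Jun or Batf family proteins, often beside RUNX and ETS factors, while T-bet and STAT4 act on the genes of the Th1 programme. The nearest gene start is used below as a label for a region and says nothing of which gene a region acts on. In libraries from many cells, a region open in few cells and a region open weakly in all cells cannot be told apart.

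The windows printed here show what lies under the summits of 8 regions. Each line is a stretch of the RefSeq GRCm38.p6 reference, plus strand, 5′ to 3′, reaching 100 bases to either side of the summit that replicate 1 gave to the region. Capitals mark matches on either strand to the AP-1 motif TGANTCA, the CTCF core motif, the RUNX motif TGTGGTT or the lymphoid ETS motif AGGAAGTG. The Zfp945 and Zfp873 windows belong to the 2 selected regions with the highest signal and the Wnt7b window to the one with the highest −log10 q, and none of these windows held a match to the 4 motifs. The Sox5 and Tnip3 windows are the strongest with an AP-1 match, the Nkx2-3 window is the strongest with a CTCF core match, and the Ifngr2 and Il17f windows are the strongest next to a gene of the Th1 and of the Th17 list. The Nkx2-3 region was chosen after its values were seen.
Zfp945, chr17:22877802-22878002: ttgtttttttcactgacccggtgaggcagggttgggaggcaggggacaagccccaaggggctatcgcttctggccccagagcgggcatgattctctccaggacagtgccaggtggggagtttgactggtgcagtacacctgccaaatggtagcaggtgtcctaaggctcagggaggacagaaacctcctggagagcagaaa
Zfp873, chr10:81997301-81997501: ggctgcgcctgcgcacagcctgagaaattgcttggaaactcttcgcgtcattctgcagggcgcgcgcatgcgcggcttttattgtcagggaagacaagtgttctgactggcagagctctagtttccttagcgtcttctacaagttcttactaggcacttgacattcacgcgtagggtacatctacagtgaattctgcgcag
Wnt7b, chr15:85634658-85634858: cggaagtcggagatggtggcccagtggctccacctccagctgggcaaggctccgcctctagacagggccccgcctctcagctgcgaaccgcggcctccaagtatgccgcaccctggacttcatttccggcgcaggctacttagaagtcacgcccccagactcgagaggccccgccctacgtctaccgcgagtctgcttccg
Sox5, chr6:144804404-144804604: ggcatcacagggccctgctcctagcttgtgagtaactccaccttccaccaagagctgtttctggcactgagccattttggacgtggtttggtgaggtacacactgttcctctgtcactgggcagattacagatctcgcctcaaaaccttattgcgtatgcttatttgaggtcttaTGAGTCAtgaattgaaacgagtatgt
Tnip3, chr6:65498845-65499045: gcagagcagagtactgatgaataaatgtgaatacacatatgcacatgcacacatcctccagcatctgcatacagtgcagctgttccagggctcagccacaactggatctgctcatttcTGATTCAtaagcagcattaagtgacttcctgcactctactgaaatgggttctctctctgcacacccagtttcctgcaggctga
Nkx2-3, chr19:43624035-43624235: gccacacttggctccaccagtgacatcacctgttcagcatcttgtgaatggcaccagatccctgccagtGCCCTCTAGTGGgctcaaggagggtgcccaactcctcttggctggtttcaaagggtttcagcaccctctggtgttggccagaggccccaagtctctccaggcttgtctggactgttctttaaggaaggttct
Ifngr2, chr16:91522550-91522750: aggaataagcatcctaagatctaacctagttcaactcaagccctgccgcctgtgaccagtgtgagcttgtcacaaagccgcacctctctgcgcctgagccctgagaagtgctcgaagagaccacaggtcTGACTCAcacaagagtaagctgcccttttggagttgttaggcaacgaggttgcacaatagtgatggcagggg
Il17f, chr1:20766676-20766876: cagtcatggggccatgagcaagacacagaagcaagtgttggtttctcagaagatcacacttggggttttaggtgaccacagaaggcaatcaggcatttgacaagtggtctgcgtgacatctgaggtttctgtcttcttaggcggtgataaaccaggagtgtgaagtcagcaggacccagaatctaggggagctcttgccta

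The selected regions had a median signal of 14.6 in replicate 1 (interquartile range 13.4 to 16.2, highest 30.6) and of 14.1 in replicate 2 (13.1 to 15.6, highest 27.5). The weaker regions had medians of 6.12 and 5.98. The values of the selected regions lay close to each other in both replicates. The higher value was a median of 1.05 times the lower one and at most 1.44 times, and 1984 of the 2028 regions had a ratio under 1.2. Replicate 1 was the higher in 1338 of them. Over the 2028 regions, which share the same 2 libraries, Spearman's rho between the replicates was 0.789. A further 447 regions at this distance reached 12 in replicate 1 only and 216 in replicate 2 only.

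The region with the highest signal lay 10.1 kb upstream of Zfp945, a zinc finger protein gene, at chr17:22876318-22878163. Its signal was 30.6 and 27.5, and its −log10 q was 543 and 378. The next lay 50.9 kb upstream of Zfp873, another zinc finger gene, with a signal of 24.9 and 26.3. These 2 regions stood apart from the rest of the selection in both lists, as the plot of signal in both replicates shows. Regions were not filtered here by how uniquely reads map or by copy number. What part either has in these values was not tested. The other 8 of the 10 strongest lay next to Gm6020, Alkbh8 (a tRNA-modifying enzyme), Zfp397, Abcc2 (an export pump), Sox5 (an HMG-box transcription factor), Tnip3 (an inhibitor of NF-κB signalling), Lrfn3 and Tmem26. Their signal ran from 19.99 in replicate 1 at Tnip3 and 19.6 in replicate 2 at Tmem26 to 23.3 at Alkbh8 in replicate 1 and 21.7 at Gm6020 in replicate 2. None of these 10 genes belonged to a T cell list.

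**Figure D1:**
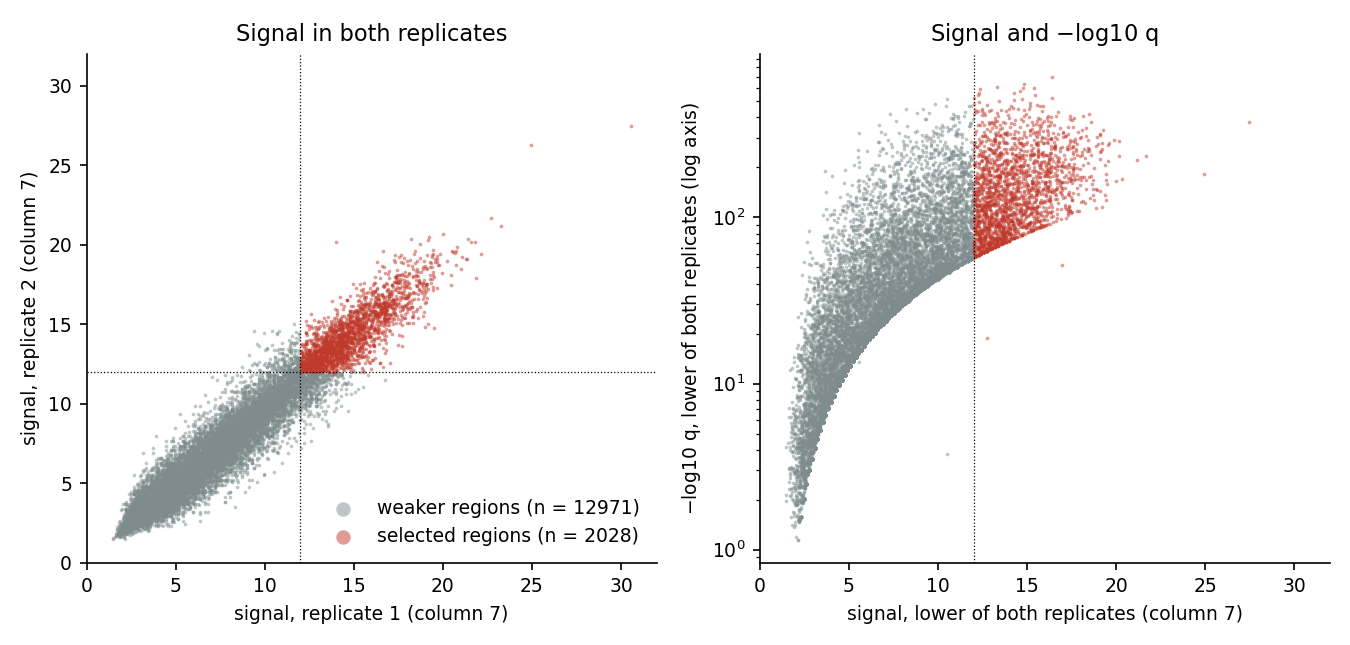
Each point is 1 of 14999 intergenic regions 10 to 100 kb from a coding gene start, selected regions in red and weaker regions in grey. The left panel plots the signal of replicate 1 against that of replicate 2, with dotted lines at 12; the right panel plots the lower signal against the lower −log10 q on a log axis, where the points have a sharp lower edge and spread widely above it.

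Values at the threshold were nearly the same on both sides. The 3 selected regions with the lowest signal, next to Sfta2, Tpt1 and Calm2, had 12.6, 13.9 and 13.6 in replicate 1 and 12, or just over, in replicate 2. The 3 regions just outside, next to Ier5, Lrpap1 and Cxcl13, had 13.2, 12.3 and 12.4 in replicate 1 and values just under 12 in replicate 2. The largest disagreements between replicates were a signal of 14.0 against 20.2 next to Marveld2, 16.6 against 12.3 next to Tex2 and 17.0 against 12.6 next to Lancl1. All 3 regions passed the threshold in both lists.

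The −log10 q of the selected regions had a median of 155 in replicate 1 (interquartile range 109 to 238) and 136 in replicate 2 (92.3 to 206). The weaker regions had medians of 29.1 and 24.8. Signal and −log10 q ordered all 14999 regions much alike (Spearman's rho 0.892, a description over regions). Within the selected regions rho was 0.374, and since the rule kept only a narrow range of signal, a lower value there was set in part by the selection. Had the same number of regions been taken by the lower −log10 q, 1195 of the 2028, or 58.9%, would have been among them. By this count the word strongest holds for column 7, and only in part for −log10 q. In the whole set of 84380 shared regions, 12852 or 15.2% reached 12 in both replicates. When as many regions as the selection holds were taken from that whole set, 317 of the selected regions were among those with the highest signal and 65 among those with the highest −log10 q.

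The region with the highest −log10 q, 803 and 702, lay 52.3 kb upstream of Wnt7b, a WNT ligand gene, at chr15:85634168-85635272, with a signal of 16.4 and 16.6. The next lay 15.5 kb upstream of Tnfrsf14, which encodes the receptor HVEM, at chr4:154943611-154944586. Its −log10 q was 725 and 639 with a signal of 14.9 and 14.8. The other 3 of the top 5, next to Neu4, Ier5l and Mphosph6, had −log10 q from 616 to 701 in replicate 1 and from 599 to 613 in replicate 2. Their signals were between 13.3 and 16.4, within the usual range of the selection. None of the 5 was among the 10 with the highest signal. In 2 regions, chosen after their values were seen, −log10 q fell apart between the lists although the signal did not. Next to Wdr73 it was 345 against 18.8 with a signal of 14.0 and 12.8, and next to Bmpr1b it was 256 against 51.8 with a signal of 17.7 and 17.0.

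The selected regions were wider at the median and more alike in width than the weaker ones. Their median width was 876.5 bp (interquartile range 730 to 1034), against 638 bp (456 to 883) in the weaker regions. Width followed signal among the weaker regions, where the 6486 at or above their median signal had a median of 768 bp and the 6485 below it 508 bp. It did not go on rising within the selection, where the 608 regions with a signal of 15 or more had a median of 850.5 bp. Very narrow regions were rare in the selection, where 10 of 2028 (0.493%) were under 400 bp against 17.5% of the weaker regions. Very wide ones were rarer too, with 2.46% at 1500 bp or more against 5.04%. The widest selected region, 2286 bp, lay 16.5 kb upstream of Jarid2, a cofactor of the Polycomb complex PRC2, and the next lay near Rpf1 (1910 bp) and Tlk1 (1859 bp). The narrowest lay near Avpr1b (235 bp), Slc6a19 (242 bp) and Slc38a11 (279 bp). The summit sat in the middle of the selected regions, at a median of 49.7% of the width. The summits of both replicates were a median of 4 bp apart in the selected regions and 15 bp apart in the weaker ones.

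Regions selected by signal lay farther from other open regions than weaker ones, but the size and in part the order of that difference depended on the measure of strength. The gap to the nearest other shared region had a median of 7721 bp (interquartile range 5140 to 12450) for selected regions and 3951 bp (1588 to 8459) for weaker ones. The order was the same at 10 to 20 kb (7350 against 3807 bp), 20 to 50 kb (7724 against 3717 bp) and 50 to 100 kb (7949 against 4420 bp) from a gene start. Another shared region lay within 12500 bp of 75.1% of the selected regions and 84.7% of the weaker ones, and within 2 kb of 6.26% and 30.2%. When as many regions were taken by −log10 q, the medians drew close to each other, at 5115 and 4497 bp, and the order of the share within 12500 bp turned, to 86.3% of the chosen regions against 83.0% of the rest.

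The share selected rose steeply between gaps of 4 and 5 kb and fell again at the longest gaps. Of the regions at this distance with another shared region within 1 kb, 3.04% were selected (exact 95% interval 2.33 to 3.89). The share stayed between 2.85% and 3.795% up to a gap of 4 kb. It was 17.97% at 4 to 5 kb and between 22.8% and 24.3% from 5 to 25 kb. Over 25 kb it was lower, at 15.2% (12.8 to 17.9). By −log10 q the same steps ran from 10.7% within 1 kb and 12.53% at 3 to 4 kb to 18.5% at 4 to 5 kb, and then down to 7.42% over 25 kb. These steps were set after the values were seen. Selected regions with a gap of up to 5 kb (457 regions) had a lower median signal than those with a larger gap, 14.0 and 13.5 against 14.8 and 14.4, and a higher median −log10 q, 197 and 166 against 146 and 126. What column 7 is relative to is not given in the sources used here. Whether it is set against the signal around a region, and what part that has in these changes, was not tested. The intervals in this text are Clopper-Pearson intervals that cover counting error over regions only, and the number of reads behind the lists is unknown.

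**Figure D2:**
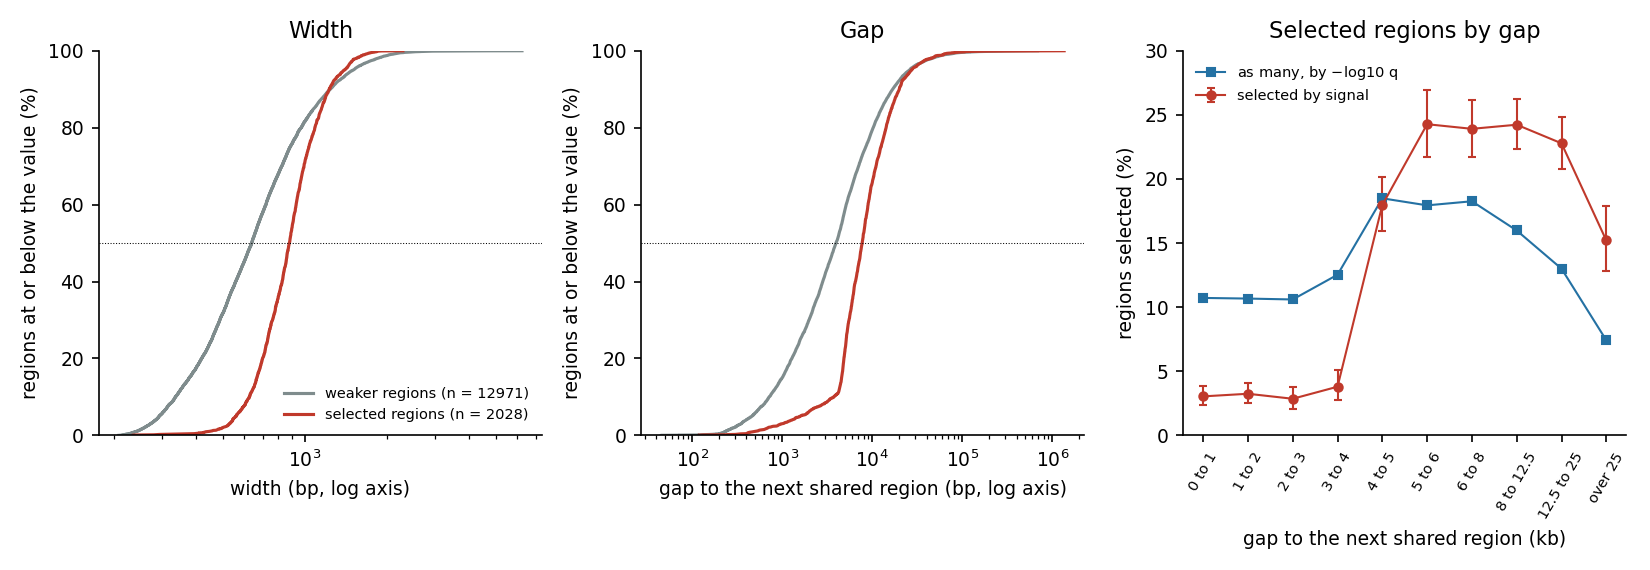
The left and middle panels show the percentage of selected regions (red) and weaker regions (grey) at or below each width and each gap to the next shared region, on log axes. The right panel shows the percentage of regions selected in each step of the gap, by signal (red, with exact 95% intervals) and for as many regions taken by −log10 q (blue): the red points are under 4% up to 4 kb and above 22% from 5 to 25 kb, and the last, over 25 kb, is at 15.2%.

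The centres of neighbouring selected regions were a median of 443 kb apart, with a smallest distance of 5359 bp. There were 22 runs of 3 or 4 in which each step between centres was at most 20 kb. Neither was set against weaker regions or an equal number of other regions. These values therefore do not show whether selected regions lie apart or together. The named runs were chosen after their values were seen. A run of 4 lay upstream of Zc3h12c, from chr9:52180830 to chr9:52210755, and another run of 4 lay beside Scd1 and Scd4, which encode stearoyl-CoA desaturases, from chr19:44363232 to chr19:44394449. Runs of 3 lay beside Il17a and Il17f, beside Il33, which encodes an alarmin cytokine, and beside Nfkbiz, which encodes the atypical IκB protein IκBζ. All 3 regions at Il33 held an AP-1 match, as did all 4 at Zc3h12c, 1 of 4 at Scd1 and Scd4, 2 of 3 at Il17a and Il17f and 0 of 3 at Nfkbiz. Over all 2028 selected regions 40.8% held one, and whether runs differ from that share was not tested.

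Distance to the nearest gene start hardly differed. The median was 31965 bp for selected and 30146 bp for weaker regions, and in steps of 10 kb the share of regions selected ran from 12.8% to 15.4%, around the 13.5% of all. By chromosome it ran from 10.6% on X to 17.4% on 16, apart from Y, where 0 of 2 regions were selected. Of the selected regions 69.1% lay upstream of the nearest coding start (exact 95% interval 67.0 to 71.1), against 65.1% (64.3 to 65.9) of the weaker ones. In steps of 10 kb the order was the other way at 60 to 70 kb, with 51.9% against 57.2%, and at 70 to 80 kb, with 54.3% against 58.2%, and the same in the remaining steps. The rule left out regions inside genes, and so positions downstream of a start within its own gene. A majority upstream was thus set in part by the rule, for selected and weaker regions alike. The nearest coding gene had an open promoter for 84.9% of selected regions and 85.3% of weaker ones, with overlapping intervals of 83.2 to 86.4 and 84.7 to 85.9. These are shares of regions, in which a gene counts once for each of its regions. As a share of genes, 65.9% of all 21938 coding genes had an open promoter. Where the nearest gene had an open promoter, the selected region had the higher signal of the pair in both replicates in 1388 of 1721 cases, or 80.6%. The rule kept only signals of 12 or more, while those promoters had medians of 10.7 and 10.4.

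The bases under the summits differed little in GC content, with a median of 48.8% within 100 bases of the summit of selected regions and 48.3% in weaker ones. The ratio of observed to expected CpG had a median of 0.240 against 0.203. Repeat-masked bases made up a median of 2.99% against 9.95% of the window, and 48.3% of selected windows held none, against 40.7%. CpG-rich windows, with a ratio over 0.6 and GC over 50%, were a minority in the selection at 127 regions or 6.26% (5.25 to 7.41), against 2.96% (2.68 to 3.27). The windows next to Zfp873 and Wnt7b printed above were among these. The 127 regions were wider than the other 1901 (medians of 1046 and 869 bp) and had a higher −log10 q (193 and 164 against 153 and 134). Of the 127, 5 held an AP-1 match, against 823 of the other 1901. The AP-1 motif TGANTCA holds no CpG, so this order may be set in part by the definition of CpG-rich windows. A start in the RefSeq promoter table, which reaches from 250 bases before a start to 50 after it, overlapped 51 selected regions (2.51%) and 222 weaker ones (1.71%) although all lay outside GENCODE genes.

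In percentage points, the largest difference between selected and weaker regions among the 22 motifs searched was that of AP-1. TGANTCA lay within 100 bases of the summit in 828 of 2028 selected regions, or 40.8% (38.7 to 43.0), in 27.9% (27.1 to 28.7) of the weaker ones and in 5.33% of windows of the same length 1 kb to either side of selected summits. The difference was found in each distance step, with 39.5% against 26.4% at 10 to 20 kb, 40.0% against 27.7% at 20 to 50 kb and 43.5% against 29.9% at 50 to 100 kb. It was found at short and long gaps as well, with 42.9% against 27.7% up to 5 kb and 40.2% against 28.2% beyond. Over all 14999 regions the share with a match rose from 19.1% in the weakest of 10 equal steps of signal to 41.6% in the strongest, and from 18.4% to 44.8% over steps of −log10 q. The Sox5 and Tnip3 windows printed above each held 1 such match, centred 78 and 21 bases past the summit.

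**Figure D3:**
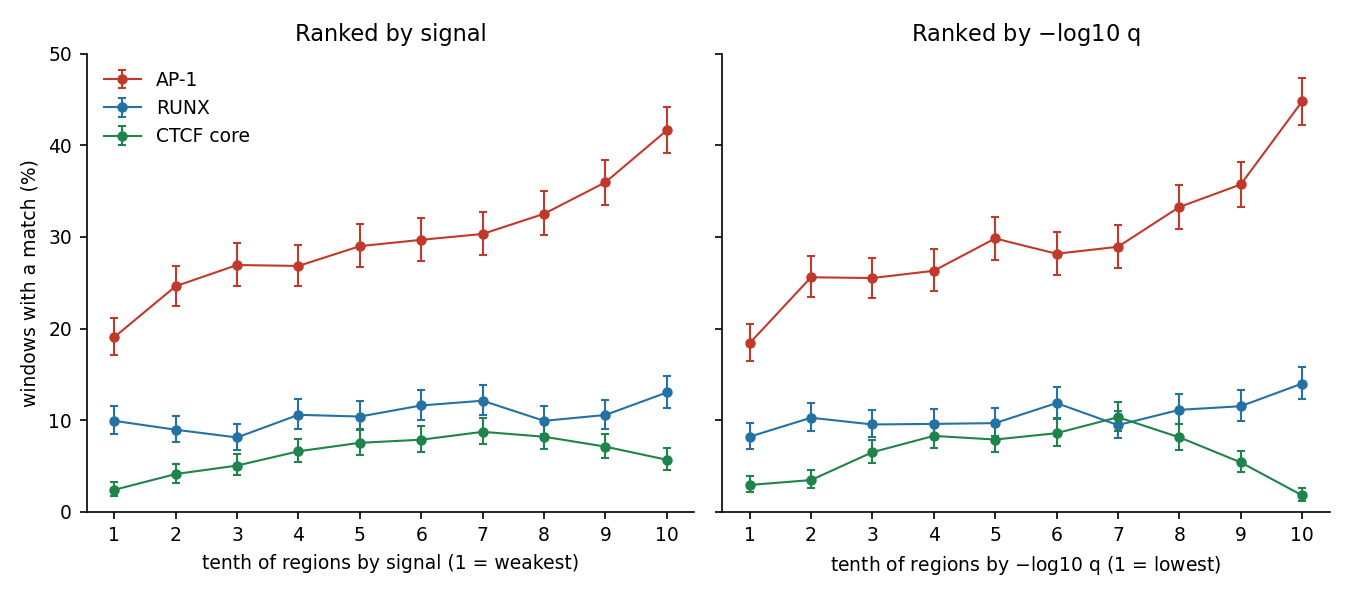
Percentage of windows, 100 bases to either side of the summit, with a match to the AP-1, RUNX and CTCF core motifs in 10 equal steps of the 14999 regions, ranked by the lower signal (left) and the lower −log10 q (right), with exact 95% intervals. AP-1 has its highest share in the top step of both rankings, 41.6% and 44.8%, while the CTCF core has its highest share in the seventh, 8.73% and 10.3%.

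The 828 selected windows held 1022 AP-1 matches, and repeated matches were more frequent among them. A total of 176 selected windows, or 8.68%, held more than 1 match, against 3.34% of weaker windows. Selected regions with more than 1 match had medians of −log10 q of 215 and 186, those with 1 match 160 and 143, and those with none 149 and 127. The medians of signal were closer, at 14.8 and 14.4, 14.6 and 14.3, and 14.5 and 14.0. A C or G stood in the middle of 82.0% of the matches in selected and 79.7% in weaker windows. The matches lay a median of 35 bases from the summit in selected regions and 32 in weaker ones, and most often 20 to 40 bases to either side. Within 10 bases of the summit lay 11.1% of the matches in selected and 14.8% in weaker windows.

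**Figure D4:**
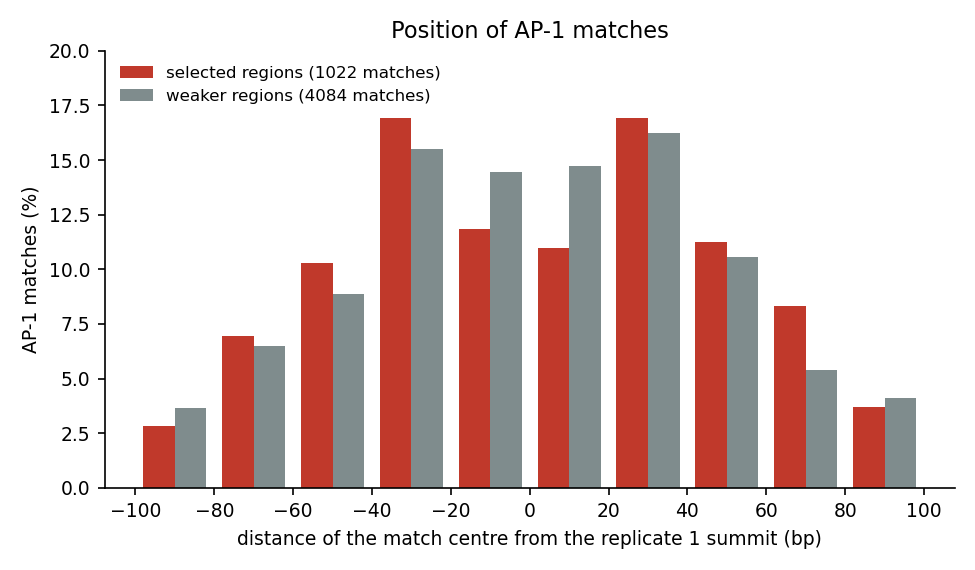
Distance of AP-1 match centres from the replicate 1 summit in steps of 20 bp, as a percentage of 1022 matches in selected regions (red) and 4084 in weaker ones (grey). The tallest bars are those 20 to 40 bp to either side, each with 16.9% of the matches in selected regions, and the bars beside the summit are lower.

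Matches to the CTCF core were about equally frequent in selected regions, 6.02% (5.02 to 7.14), and weaker ones, 6.38% (5.96 to 6.81), and scarce 1 kb away, at 0.123%. The order turned with the distance from a gene start. At 10 to 20 kb the share was 9.91% of selected and 7.62% of weaker regions, with overlapping intervals. At 20 to 50 kb it was 5.675% and 6.02%. At 50 to 100 kb it was lower in the selected regions, at 2.62% (1.48 to 4.29) against 5.57% (4.82 to 6.39). Among as many regions taken by −log10 q the share was 2.56%. Over all regions it rose from 2.40% in the weakest of the 10 steps of signal to 8.73% in the seventh and was 5.68% in the top step. By −log10 q it rose to 10.3% in the seventh step and was 1.80% in the top one. Of the selected regions 818 had an AP-1 match without the CTCF core, 112 the CTCF core without AP-1, 10 both and 1088 neither. The 112 had a lower −log10 q (medians of 113 and 93.4) than the 818 (171 and 150), at nearly the same signal (14.8 and 13.9 against 14.7 and 14.4). They lay nearer to a gene start, at a median of 22.0 against 33.4 kb. Their median CpG ratio was 0.315 against 0.195. Their RUNX share was 5.36% against 11.7%. The strongest of the regions with the CTCF core, chosen after their values were seen, lay 11.7 kb downstream of the start of Nkx2-3, with a signal of 19.5 and 18.9, 18.7 kb upstream of Tada1, with 21.9 and 17.9, and 22.4 kb downstream of the start of Akr1cl, with 19.3 and 17.8. In the Nkx2-3 window printed above the match was on the minus strand, centred 25 bases before the summit.

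Smaller differences appeared for other motifs. The RUNX motif TGTGGTT was found in 12.9% (11.4 to 14.4) of selected and 10.2% (9.65 to 10.7) of weaker windows, beside 5.35% 1 kb away. The lymphoid ETS motif AGGAAGTG was found in 7.74% (6.62 to 8.99) and 6.01% (5.61 to 6.44). The KLF and SP motif GGGCGGGG was found in 2.96% (2.27 to 3.79) and 1.70% (1.49 to 1.94), a ratio of 1.74 that was above the 1.46 of AP-1. Among selected regions it was found in 15.75% of the CpG-rich windows and 2.10% of the others. GGGCGGGG holds only G and C and includes a CpG, so that order was set in part by the definition of CpG-rich windows. Ratios above that of AP-1 were also found for the AP-1 and IRF composite, NRF1 and YY1, with matches in only 18, 2 and 8 selected windows. For the T-box motif AGGTGTGA, to which T-bet binds, the shares were 2.37% (1.75 to 3.13) and 1.77% (1.55 to 2.01), with overlapping intervals. Intervals also overlapped for the STAT motif TTCNNNGAA (8.68% and 9.27%), the NFAT motif TGGAAAA (3.50% and 4.06%), the GATA motif AGATAAG (2.37% and 2.26%), the NF-κB motif GGGANTTCC (1.92% and 1.43%) and the TCF and LEF motif CTTTGA (18% and 16.3%). NFAT matches were no more frequent at selected summits than 1 kb away, at 5.47%. Of the selected windows 337, or 16.6%, held none of the 22 motifs. Motifs were searched on both strands, and some share letters, as AGGAAGTG does with the PU.1 motif GAGGAAGT. A match describes letters in the window and not a bound site.

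The 2028 selected regions had 1668 different coding genes as nearest start, 7.6% of the 21938 annotated. Most of these genes, 1376, had 1 selected region, 234 had 2, 49 had 3, 8 had 4 and 1 had 5. Within 100 kb of the start, 4480 genes or 20.4% had at least 1. The gene with 5 was Zc3h12c, which encodes an RNase of the Regnase family. Its regions lay 12.8, 20.02, 35.0, 41.8 and 91.3 kb upstream of the start on chromosome 9. Their signal ran from 13.9 to 15.8 in replicate 1 and from 13.2 to 15.8 in replicate 2, above the 10.8 and 10.1 of the promoter. All 5 held an AP-1 match, beside 40.8% of all selected regions. The region at 12.8 kb (chr9:52180830-52181847) had the highest −log10 q of the 5, 270 and 237.

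Akap11, an anchor protein for protein kinase A, had 4 selected regions, 45.2 to 88.0 kb downstream of its start, with signals from 14.7 to 16.7 and from 14.5 to 17.5. Prag1, Dap, Bod1, Noct, Fabp5, Nrn1 and Atp11b had 4 each and Bach1, the next by signal, had 3. At Noct, which encodes the phosphatase nocturnin, all 4 lay upstream, at 14.5 to 95.5 kb, and the same held for Nrn1 (17.6 to 79.3 kb), which encodes the membrane protein neuritin, and for Atp11b (21.9 to 60.8 kb). At Dap the 4 regions had signals from 13.3 to 17.0 and from 12.1 to 16.8, while the promoter had 5.96 and 5.72. At Bod1 the promoter, with 14.0 and 14.2, lay within the range of the regions, from 12.9 to 15.2 and from 12.8 to 16.4. The strongest region at Bach1, a transcription factor gene, had 18.5 and 19.6 and lay 56.6 kb upstream at chr16:87642032-87642616.

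Genes of T cell programmes were often the nearest gene of a selected region, and so were genes of some other lists. Of 30 genes of a Th1 list, 13 or 43.3% (25.5 to 62.6) were, beside the 7.6% of all coding genes. The counts were 5 of 18 for Th2, 4 of 17 for Th17, 6 of 20 for Treg, 6 of 16 for Tfh and 15 of 52 for T cell transcription factors. They were 5 of 30 for T cell identity and receptor signalling, 7 of 34 for activation and cytokines, 6 of 28 for chemokine and homing receptors, 5 of 25 for apoptosis and survival and 5 of 15 for CD8 and cytotoxic genes. Lists of other cells gave 4 of 18 for B cells, 5 of 23 for myeloid cells, 2 of 15 for natural killer cells, 1 of 14 for hepatocytes and 0 of 20 for neurons, and housekeeping genes gave 4 of 28. The shares of B cell genes (22.2%) and myeloid genes (21.7%) were above that of T cell identity genes (16.7%). They were also above those of activation and cytokine genes (20.6%) and of chemokine and homing receptors (21.4%). A share above that of all genes was thus not particular to T cell lists. Within 100 kb of a selected region lay 21 of the 30 Th1 genes, or 70%, beside the 20.4% of all coding genes. The lists differ in how many genes have any intergenic region next to them: 20 of 30 Th1 genes did, against 5809 of all 21938 coding genes and 1 of 20 neuronal genes. The counts were 20 of 30 for T cell identity, 24 of 34 for activation and cytokines, 5 of 18 for B cells and 10 of 23 for myeloid cells.

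Counted over regions, the T cell lists did not hold more of the selection. Of 126 regions next to Th1 genes 17 were selected, or 13.5%, the same share as of all 14999. It was 4.55% next to activation and cytokine genes (8 of 176), 7.69% next to T cell identity genes (6 of 78) and 19.1% next to Th2 genes (9 of 47). Over 9 T cell lists together it was 80 of 799, or 10.01%. Regions next to these genes lay closer together, with 70.8% of the 799 within 5 kb of another shared region against 54.0% of all. Among regions with a larger gap the share selected was 22.75% next to T cell genes (53 of 233) and 22.76% over all. It was 40.0% next to Th1 genes (12 of 30), 7.50% next to activation and cytokine genes (3 of 40) and 14.3% next to T cell identity genes (4 of 28). By −log10 q, 20.3% of the 799 regions and 25.4% of those next to Th1 genes were among the top 2028, against 13.5% of all. The choice of measure thus turned the order of T cell genes and all genes. A share above that of all regions was not particular to T cell lists. By −log10 q it was 21.95% next to housekeeping genes (9 of 41). The counts were 3 of 13 for natural killer cells, 5 of 36 for myeloid cells and 1 of 8 for B cells. They were 0 of 5 for hepatocytes and 1 of 2 for neurons. By signal the share was 17.07% next to housekeeping genes (7 of 41) and 16.67% next to myeloid genes (6 of 36).

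**Figure D5:**
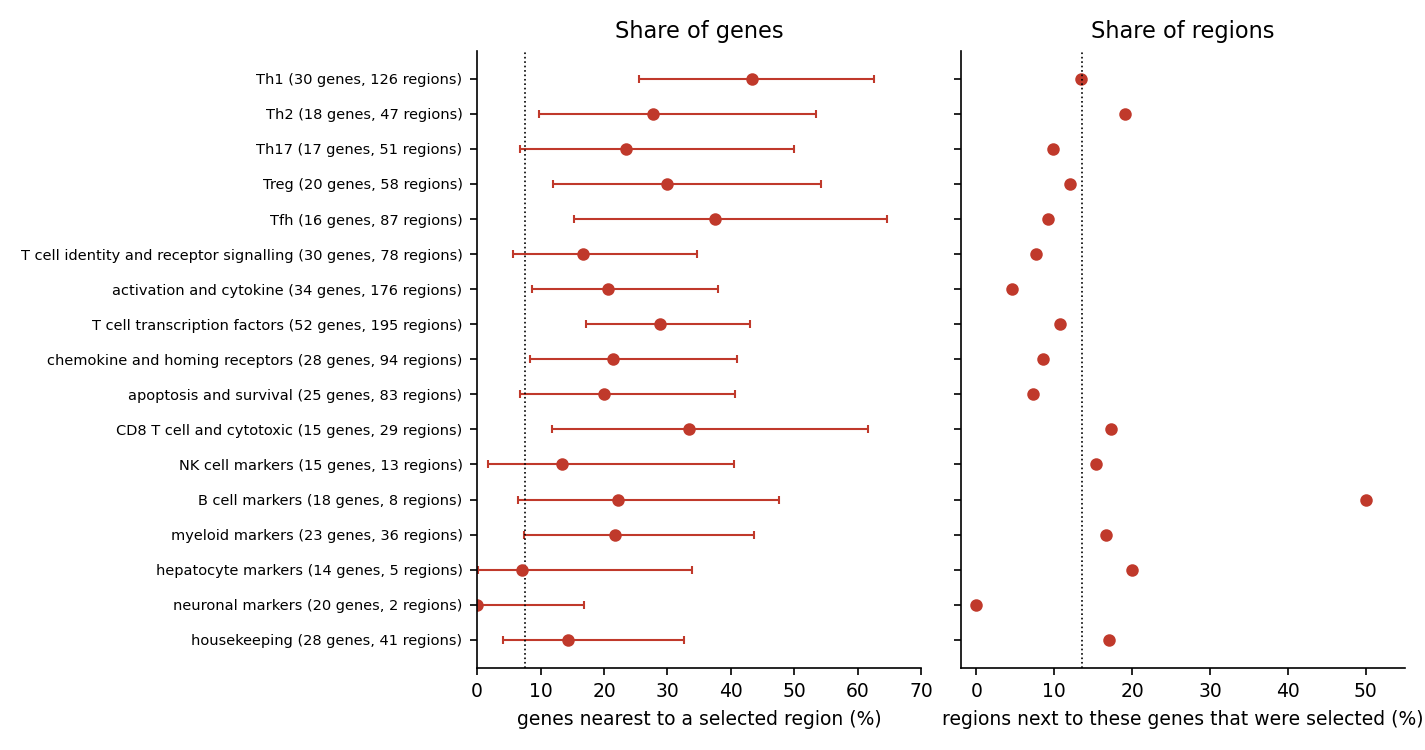
For 17 gene lists, the left panel shows the percentage of genes that are the nearest coding start of a selected region, with exact 95% intervals, and the right panel the percentage of regions next to these genes that were selected. Dotted lines mark all coding genes (7.6%) and all regions (13.5%): the Th1 list is at 43.3% on the left and on the dotted line on the right.

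Next to genes of the Th1 list, 10 of 17 selected regions and 38 of 109 weaker ones held an AP-1 match, or 58.8% and 34.9%, beside 40.8% and 27.9% over all selected and all weaker regions. The lists differed in this, and each held few selected regions. The shares were 66.7% and 18.4% next to Th2 genes (6 of 9 selected regions) and 66.7% and 19.4% next to T cell identity genes (4 of 6). They were 60% and 28.3% next to Th17 genes (3 of 5) and 80% and 25% next to CD8 and cytotoxic genes (4 of 5). They were 50% and 32.9% next to Tfh genes (4 of 8), and 50% and 35.1% next to apoptosis and survival genes (3 of 6). They were 38.1% and 29.9% next to T cell transcription factor genes (8 of 21), and 100% and 18.2% next to natural killer cell genes (2 of 2). They were 33.3% and 26.7% next to myeloid genes (2 of 6). In the remaining lists the shares were close or stood in the other order. The shares were 28.6% and 35.3% next to Treg genes (2 of 7) and 37.5% and 38.1% next to activation and cytokine genes (3 of 8). They were 25% and 24.4% next to genes of chemokine and homing receptors (2 of 8) and 0% and 50% next to B cell genes (0 of 4). They were 28.6% and 26.5% next to housekeeping genes (2 of 7) and 0% and 25% next to hepatocyte genes (0 of 1). The selected region with the highest signal in replicate 1 next to Th1 genes lay 24.4 kb upstream of Ifngr2, a chain of the interferon-γ receptor, at chr16:91522220-91523178, with 18.6 and 18.3 and a −log10 q of 275 and 227. Its AP-1 match, printed above, lay 32 bases past the summit. Ifngr1, the other chain, had 2 selected regions, at 61.8 kb upstream (signal 16.2 and 16.4) and 34.1 kb upstream (13.6 and 12.6). Hlx, a homeobox gene of Th1 cells, had 1 region 75.1 kb downstream of its start (16.5 and 16.0) and 1 region 18.97 kb upstream (16.7 and 19.6). At Stat4, which carries the interleukin-12 signal, a region 16.8 kb upstream (chr1:51970031-51970685) had 16.3 and 15.4, above the promoter's 4.91 and 4.47. Xcl1, a chemokine gene, had 3, at 30.8, 63.9 and 85.6 kb upstream, with signals between 13.0 and 14.8 in replicate 1 and between 13.1 and 16.8 in replicate 2. Unlike at Stat4, its promoter was higher in replicate 1, at 17.6, and at 13.9 in replicate 2 it lay within the range of these regions.

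Other Th1 genes had 1 selected region each. Id2, a repressor of E proteins, had one 46.6 kb upstream with a signal of 15.7 and 14.3 and a −log10 q of 270 and 219. Ccl5, a chemokine gene, had one 20.04 kb upstream with 15.1 and 13.3, while its promoter had 3.63 and 3.60. Twist1 had one 83.5 kb downstream of its start with 16.2 and 15.6. The Id2 and Twist1 regions held an AP-1 match, and the Ccl5 region held none of the 22 motifs.

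Genes of other helper programmes had selected regions as well. At Il17f and Il17a, which encode the cytokines of Th17 cells, 3 selected regions lay side by side on chromosome 1. The region assigned to Il17f (chr1:20766439-20767099) had 18.9 and 17.3, above the Il17f promoter's 11.5 and 12.3. The regions assigned to Il17a (chr1:20754445-20754870 and chr1:20759554-20760693) had 14.3 and 12.9, and 15.9 and 16.4, and Il17a had no open promoter. Maf, a transcription factor of Th2 and Tfh cells, had 3, the strongest 63.4 kb upstream with 18.9 and 18.6. Il1rl1, the interleukin-33 receptor, had 2, and the one 36.1 kb upstream had a −log10 q of 417 and 411. At Ctla4, an inhibitory receptor gene, a region 43.8 kb downstream of the start had 15.04 and 14.2, and at Il10 one lay 18.6 kb downstream with 14.6 and 14.1 beside a promoter that was not open.

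Among T cell identity genes and transcription factors, single regions reached a high −log10 q at moderate signal. The region 16.7 kb upstream of Tcf7, which encodes the transcription factor TCF-1, at chr11:52299305-52300164, had a −log10 q of 592 and 514 and a signal of 14.7 and 14.9. At Nfkbiz the region 84.4 kb downstream of the start had 558 and 508 with a signal of 14.3 and 14.8. Fosl2, which encodes an AP-1 subunit, had 2. The region 31.5 kb upstream had a −log10 q of 436 and 361 and a signal of 16.2 and 15.7. The region 33.4 kb downstream of its start had a lower −log10 q, 121 and 134, with a signal of 14.4 and 16.0. Fos, another AP-1 subunit, had 2, one 18.4 kb upstream (15.9 and 15.9) and one 45.9 kb downstream of its start (16.9 and 16.2). Bach2, which encodes a repressor that competes with AP-1, had one 58.7 kb upstream with 18.1 and 18.2. Ets2 had 3, with signals from 12.2 to 18.3 and from 12.4 to 17.95.

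Some genes that mark other cells were also the nearest start of selected regions. The region 78.8 kb upstream of Bank1, a B cell gene, had 19.3 and 18.9, and the region 36.0 kb upstream of Ebf1, a B cell transcription factor gene, had 16.9 and 15.2. Next to Ly86, a myeloid gene, 2 regions had 12.7 and 13.0, and 19.8 and 18.7. Bank1 and Ly86 had no open promoter. Gzma, a cytotoxic granule gene, also had none, and its region 19.6 kb upstream had 14.6 and 15.03. Housekeeping genes were represented by Actb, with a region 14.2 kb upstream at 15.5 and 15.7 and a −log10 q of 612 and 547, and by Tfrc, Eef1a1 and Ywhaz.

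Strong intergenic regions outside this distance range differed in the motifs they held. Nearer than 10 kb to a coding start, 437 intergenic regions or 8.21% reached 12 in both replicates, and farther than 100 kb, 671 or 14.5% did, beside the 13.5% between. AP-1 matches were found in 42.1% (37.4 to 46.9) of the 437, 40.8% of the selected regions and 53.7% (49.8 to 57.5) of the 671. CTCF core matches ran the other way, at 11.4% (8.61 to 14.8), 6.02% and 0.894% (0.329 to 1.94). Among weaker regions AP-1 shares were 25.8%, 27.9% and 32.7% in the same order, and CTCF core shares were 6.47%, 6.38% and 3.51%. Another shared region lay within 2 kb of 7.09% of the 437 and 4.92% of the 671, near the 6.26% of the selected regions.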

How the data were processed

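The deposited lists hold 1 set of ATAC-seq regions per replicate on mm10, per the labels. Column 7 is a signal value as deposited by the authors, whose reference is not stated in any source used. The authors' lists also give −log10 p in column 8, −log10 q in column 9 and the summit's offset in the last one. Neither the aligner nor the caller is named in the labels. Words such as ASTARR and insert stand in the region names, and their meaning is not stated. Read numbers are not in the lists, so the depth is unknown.

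Regions of both lists that overlapped by at least 1 bp were joined, keeping the strongest value of each replicate. 89 and 85 regions off chromosomes 1 to 19, X and Y were left out. No filter by how uniquely reads map or by copy number was applied to the lists. Genes came from GENCODE M21 and bases from the RefSeq GRCm38.p6 sequence, which has mm10 coordinates. The gap was measured to the nearest other shared region of any kind. Motifs were searched within 100 bases of the replicate 1 summit. Python 3.11.15 with pandas 2.3.3, numpy 2.4.6, scipy 1.17.1 and pysam 0.24.0 was used. The code was tested on simulated data.

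No test was run: 1 group has no comparison, regions are not replicates, and column 7 chose the regions. Members, 17 gene lists and 22 motifs were chosen with earlier results of these data known. Named were the 10 regions of highest signal, the 5 of highest −log10 q, the 3 widest and narrowest, the 3 with the largest ratio, 3 on each side of the threshold, the 10 genes with most regions, and up to 8 genes of each list, of which examples are given. The value of 1 marker gene is not reported here. Alternatives changed the threshold, the measure, the overlap, the gene starts, the annotation and the replicates.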

Additional observations from a re-analysis of the deposited data

How the results depend on the processing

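In 8 of 8 alternatives the selected regions were wider than the remaining regions of the same distance, with a larger median gap. In all 8 they had a higher CpG ratio and a higher share upstream. The share with an AP-1 match was higher in all 8 (38.4% to 43.9% against 26.7% to 29.1%). Their −log10 q was also higher in all 8, but where −log10 q chose the regions this could not have come out otherwise. Where signal chose them, this order was set in part by the selection, because signal and −log10 q ordered regions much alike. With a threshold of 10 there were 3437 selected regions, with a median width of 875 bp, a −log10 q of 119.4 over both replicates, a gap of 6941 bp, 77.48% within 12500 bp of another shared region, a CpG ratio of 0.235 and an AP-1 share of 38.41%. With a threshold of 15 there were 608, with 850.5 bp, 190.2, 8814.5 bp, 68.59%, 0.2273 and 43.91% for the same measures. Taking as many regions by −log10 q gave a width of 960.5 bp, a −log10 q of 193.4, a gap of 5114.5 bp, 86.29% within 12500 bp, an open promoter at the nearest gene in 88.46%, a CpG ratio of 0.2433 and a CTCF core share of 2.564%. This measure turned the order of the share within 12500 bp and of the open promoter share. Requiring an overlap of 50% of both regions gave a width of 875 bp and a CpG ratio of 0.2401. Starts of all coding transcripts gave 880 bp, 0.2393 and 64.57% upstream, and leaving out only coding genes gave 885 bp and 0.2512. Using 1 list alone gave widths of 819 to 821 bp, −log10 q of 129.7 to 142.4, gaps of 6687 to 7331 bp, 77.63% to 80.09% within 12500 bp and a CpG ratio of 0.2393. The CTCF core share was above that of the remaining regions in 4 of 8 alternatives. The cause of each shift was not tested. The AP-1 alternatives were added after the data were seen. The depth of the libraries is unknown. No paired analysis was possible because there is 1 group.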
